A study of Mus musculus with 6 samples.

Results

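The antiviral interferon-stimulated genes described here are 33 genes that interferons switch on, among them the IFIT, oligoadenylate synthetase and Mx families, the cytosolic RNA sensors and the ISG15 system. Each gene was taken from an array table of ileal expression by its symbol and represented by its brightest probe set (highest mean of the 6 arrays), which gave values for 31 of the 33 among 18193 genes in all. Isg15, the ubiquitin-like modifier, stood only on a probe set that the annotation shares between genes, and Ifi44 had no probe set under its symbol, so both are without a value. The tissue was the mucosa of the terminal ileum of 3-month-old female mice on the 129S6 background. The comparison set Duoxa-/- mice, which lack the maturation factors that the hydrogen peroxide-releasing dual oxidases need, against wild-type littermates (wt) of the same cage. Each genotype had 3 samples, 1 from each of 3 cages, and a cage was a litter. A sample was RNA pooled from 2 to 3 animals and read on 1 Affymetrix array, so the spread between single animals is not visible and 3 pools per group limit the precision. In such whole-tissue samples, fewer cells of a type and less RNA per cell cannot be told apart.

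Interferons of type I and type III are secreted by cells that sense foreign or misplaced nucleic acids. Their receptors activate the kinases JAK1 and TYK2, and a complex that holds STAT2 and IRF9 then binds interferon-stimulated response elements in promoters. In the gut epithelium, type III interferon is the main antiviral signal, and resident microbes are known to keep a low level of these transcripts switched on. Values are on the log2 scale, so that a difference of 1 is a doubling; levels of different probe sets are not comparable, and each gene is compared only with itself across pools.

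The core of the response element is GAAA, then 2 bases of any kind, then GAAA. Promoters of 23 of the 33 genes were in the RefSeq promoter table of build GRCm38.p6, as windows of 250 bases before to 50 bases after the start, and 12 of them held this core on either strand (52.2%), against 3.99% of the 27025 genes in the table. The core of the gamma-activated site, TTCNNNGAA (N is any base), an element of genes that answer interferon gamma, stood in 4 of the 23 (17.4%) and in 9.55% of genes; in Bst2 it overlaps a response element core. These are matches of letters and do not show binding. The stretches below, each upstream of the start and read on the gene's strand, show how the cores lie in genes whose values follow, and in Isg15. In Oas1a, Bst2 and Isg15 neighbouring cores overlap. Capitals mark the cores, which read TTTC, 2 bases, TTTC where they lie on the opposite strand.
Ifit1 (chr19:34640765-34640833, plus strand): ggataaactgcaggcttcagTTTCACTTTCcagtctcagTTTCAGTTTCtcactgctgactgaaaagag
Ifit3 (chr19:34583353-34583436, plus strand): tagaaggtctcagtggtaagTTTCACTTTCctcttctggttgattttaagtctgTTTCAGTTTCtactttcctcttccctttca
Oas1a (chr5:120907526-120907565, minus strand): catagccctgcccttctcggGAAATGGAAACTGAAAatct
Bst2 (chr8:71537567-71537622, minus strand): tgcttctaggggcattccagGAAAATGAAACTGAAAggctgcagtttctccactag
Rsad2 (chr12:26456543-26456592, minus strand): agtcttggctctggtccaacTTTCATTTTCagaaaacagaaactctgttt
Stat2 (chr10:128270256-128270305, plus strand): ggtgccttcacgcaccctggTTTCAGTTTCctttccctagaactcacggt
Isg15 (chr4:156200855-156200916, minus strand): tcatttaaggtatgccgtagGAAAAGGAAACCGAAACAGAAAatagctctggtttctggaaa
Ifit1 and Ifit3 each carry a pair of cores with the same letters, TTTCACTTTC and TTTCAGTTTC; in Duoxa-/- ileum, Ifit3 was higher in each cage and Ifit1 in 2 of 3. Among measured genes, the median genotype difference was 0.17 for the 11 with a core in the window and 0.17 for the 10 without one. The 10 whose promoter was not in the table had a median of 0.32.

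The tissue label was checked against ileal enterocyte genes: the bile acid-binding protein Fabp6 read 14.64 to 14.83 and the ileal bile acid transporter Slc10a2 12.18 to 12.55 over the 6 pools. Duoxa2, a maturation factor gene, read 7.24 to 8.81 in wild-type and 5.55 to 5.92 in Duoxa-/- pools. Duoxa1, its partner gene, read 6.25 to 6.41 and 5.92 to 6.33, with overlap and below the array's median level of 6.58. At such levels the values of Duoxa1 do not show whether the gene is present. The wild-type array of cage 1 had the lowest average r with the remaining ones (0.9944), narrowly below the wild-type array of cage 2 (0.9949). All 10 smooth muscle genes had their highest value of the 6 pools in the cage 1 wild-type pool. In the Duoxa-/- pool of the same cage all 10 had their lowest, so these genes do not single out either pool. Results on the interferon-stimulated genes are given for all pools and again after omitting the cage 1 wild-type array. The effect of leaving out other pools is given at the end.

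The interferon-stimulated genes tended to read slightly higher in Duoxa-/- ileum, and none of them passed the test over all genes. A failure to pass does not show that a difference is small. Duoxa2, with a difference of -2.34, did not pass either (limma adjusted p = 0.760). With limma, 0 of the 31 interferon-stimulated genes reached an adjusted p under 0.05, as did 0% of all 18193 genes. The smallest adjusted p among the 31 was 0.760. Their mean was higher in Duoxa-/- pools for 26 of 31, against 46.1% of all genes and 52.3% of the 11708 genes with a group mean of 6.58 or more, which is the median over the array's probe sets (here called genes at or above the median level). Mx2 was the only one of the 31 under that level. The median difference, Duoxa-/- minus wild type, was 0.18 with quartiles of 0.06 and 0.41, while the median over all genes was -0.01.

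The genes differed in how evenly the cages shared this direction. In all 3 cages, 16 of 31 genes were higher in the Duoxa-/- pool, a pattern seen in 13.5% of all genes (17.2% of those at or above the median level), and 1 gene, Ifitm3, was lower in all 3 (16.6% of all genes). For 10 genes every Duoxa-/- pool lay above every wild-type pool (5.08% of all genes, 6.69% of those at or above the median level), namely Ifi27l2a, Slfn4, Usp18, Oas2, Dhx58, Rsad2, Bst2, Oas1a, Trim30a and Ifih1; the reverse occurred in 0 of 31 (6.46%). An unadjusted p under 0.05 with a higher Duoxa-/- mean was found for 11 genes (1.87% of all genes, 2.42% of those at or above the median level), and with a lower mean for 0 (3.66%); in either direction the share of all genes was 5.53%. With cage as a replicate block, 13 genes had an unadjusted p under 0.05, all higher (2.18% of all genes higher, 6.41% in either direction). By size, 12 genes were at least 1.25-fold higher (0.835% of all genes, 1.14% of those at or above the median level) and 0 at least 1.25-fold lower (1.55%); 4 of them, Ifit2, Slfn4, Ifi27l2a and Usp18, were at least 1.5-fold higher (0.115%). These genes share their regulators and the same 6 arrays, so their counts are not independent observations. An exact permutation test of any 1 gene over the 20 assignments of the pools could not give a two-sided p under 0.1.

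**Figure D1:**
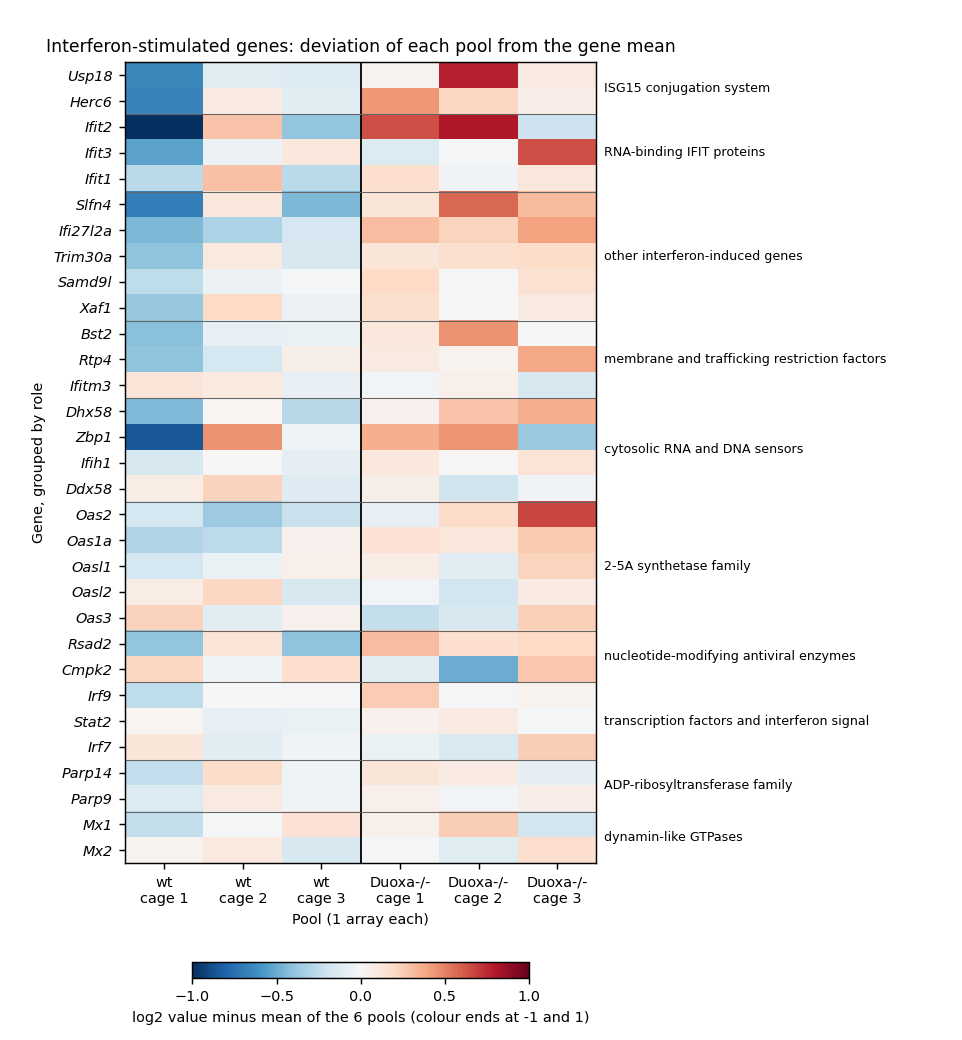
Deviation of each of 31 interferon-stimulated genes (rows, grouped by role) in each of 6 pools (columns, 3 wild-type left of the line and 3 Duoxa-/- right of it) from the gene's mean over the pools, in log2 units, with colours ending at -1 and 1. The wild-type pool of cage 1 is the lowest of the 6 for 21 genes, and the Duoxa-/- pool of cage 3 the highest for 13.

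Ifi27l2a, which encodes a small interferon-induced membrane protein, had the smallest p of the list. It read 9.61, 9.74 and 9.88 in the wild-type pools of cages 1, 2 and 3 and 10.37, 10.28 and 10.46 in the Duoxa-/- pools of the same cages. The groups are separated by 0.39, more than the SD within either (0.14 and 0.09, n = 3). Its difference of 0.63 (SE 0.10, 95% interval 0.41 to 0.85), or 1.54-fold, was of like size in the cages, at 0.76, 0.54 and 0.58, and did not pass after adjustment (limma adjusted p = 0.760).

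Slfn4, a Schlafen family gene known from myeloid cells, had a difference of 0.67 (SE 0.20, limma adjusted p = 0.811). Wild-type pools read 8.11, 8.91 and 8.35 and Duoxa-/- pools 8.92, 9.36 and 9.11, so that the groups are apart by 0.0071 only. Within each cage, the Duoxa-/- pool was higher by 0.45 to 0.80. Trim30a, a ubiquitin ligase that restrains inflammatory signalling, read 7.89, 8.39 and 8.14 in wild-type pools against 8.41, 8.46 and 8.48. The Duoxa-/- pools were nearly equal here (SD 0.03, n = 3), while the wild-type pools were spread (SD 0.25, n = 3) around a mean lower by 0.31 (SE 0.12). Samd9l, an antiviral and growth-restraining factor, read 11.17, 11.37 and 11.41 in wild-type and 11.63, 11.40 and 11.58 in Duoxa-/- pools. Its groups overlap only in that the wild-type pool of cage 3 reached the Duoxa-/- pool of cage 2, and the difference was 0.22 (SE 0.10). Xaf1, a partner of an apoptosis inhibitor, differed by 0.16 (SE 0.14), with opposite signs in cages 1 (0.54) and 2 (-0.20). Its dimmer probe set differed by 0.44 (SE 0.17) and was higher in all 3 cages, so the mixed signs depend on the probe set.

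The ISG15 system, represented by its protease and its ligase, had the largest median of the roles with more than 1 gene (0.54 over 2 genes). Usp18, which removes ISG15 from proteins and damps the type I interferon receptor, read 8.43, 8.96 and 8.94 in wild-type pools and 9.11, 9.86 and 9.17 in Duoxa-/- pools. All Duoxa-/- pools lay above all wild-type pools, with a difference of 0.60 (SE 0.22, 1.52-fold, limma adjusted p = 0.811) and the largest cage difference in cage 2 (0.90). Herc6, the main ISG15 ligase of the mouse, read 7.19, 7.94 and 7.75 against 8.30, 8.07 and 7.92. Its groups overlap, and the difference of 0.47 (SE 0.19) rests largely on cage 1, where it was 1.11 against 0.13 and 0.18 in the others. With the mean of its probe sets it was 0.23.

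IFIT proteins bind viral RNA that lacks the marks of the host's own messenger RNA. Ifit2 had the largest difference of the list, 0.82 (SE 0.37, 95% interval -0.02 to 1.67, limma adjusted p = 0.811), and also one of the widest spreads. Its wild-type pools read 7.91, 9.33 and 8.64 and its Duoxa-/- pools 9.68, 9.84 and 8.84. The wild-type pool of cage 2 lies above the Duoxa-/- pool of cage 3, and the differences of 1.77, 0.51 and 0.19 in cages 1, 2 and 3 have 1 sign and unequal size. Ifit3 read 8.30, 8.77 and 8.94 in wild-type pools and 8.69, 8.81 and 9.47 in Duoxa-/- pools, a difference of 0.33 (SE 0.23). The groups overlap, but each cage had the Duoxa-/- pool higher, by 0.40, 0.04 and 0.54, and with cage as a replicate block the SE was 0.11 (limma adjusted p = 0.741). For Ifit1 the pools read 10.71, 11.28 and 10.72 against 11.15, 10.95 and 11.10. It was higher in Duoxa-/- pools of cages 1 and 3 and lower in cage 2 (-0.33), with a difference of 0.16 (SE 0.15). In all 3 IFIT genes the wild-type pool of cage 1 was the lowest of the 6.

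**Figure D2:**
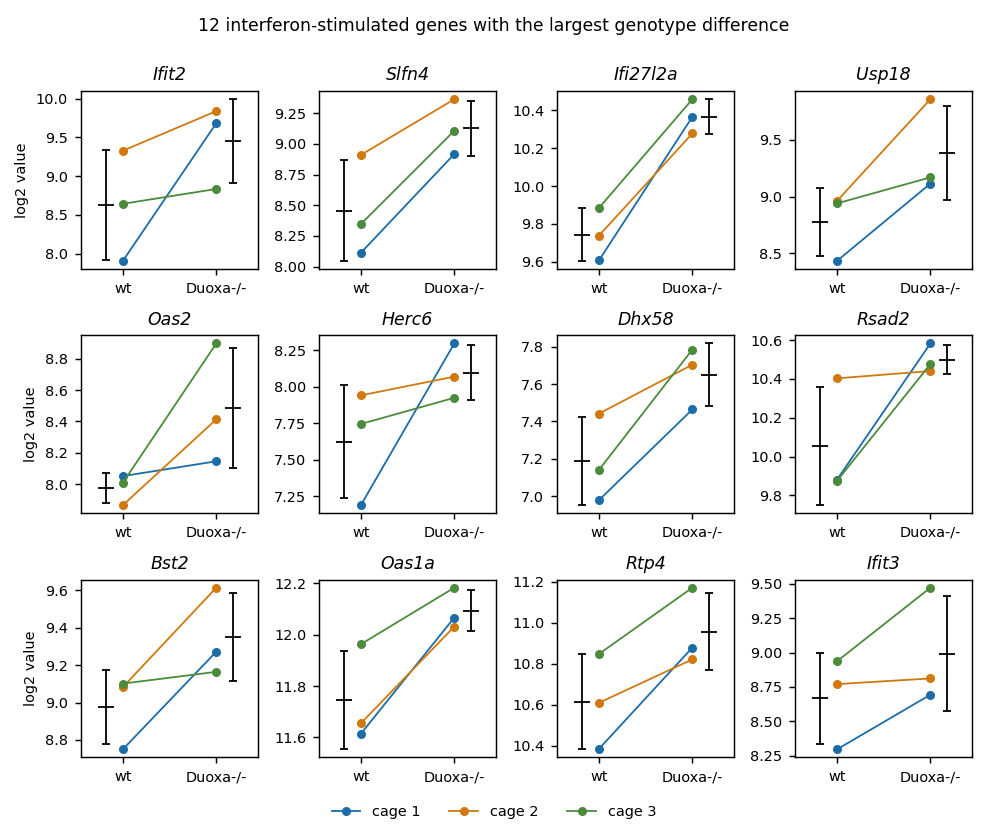
Log2 values of the 12 genes with the largest genotype difference in the wild-type and Duoxa-/- pool of each cage, joined by a line per cage, with the group mean and SD (n = 3) in black beside the points. Each y axis has its own range; every line goes up from wild type to Duoxa-/-, steeply for Ifi27l2a in all cages and for Ifit2 and Herc6 mainly in cage 1.

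Oligoadenylate synthetases make the messenger that activates the antiviral ribonuclease RNase L. Oas1a read 11.61, 11.65 and 11.96 in wild-type pools and 12.07, 12.03 and 12.18 in Duoxa-/- pools. These groups do not overlap, and the difference of 0.35 (SE 0.11, 1.27-fold, limma adjusted p = 0.811) had the same sign in each cage (0.45, 0.38 and 0.22). Oas2 read 8.05, 7.87 and 8.01 against 8.15, 8.41 and 8.90, a difference of 0.51 (SE 0.17). Its wild-type pools were nearly equal and the Duoxa-/- pool of cage 3 was far above the others, so that cage 1 contributed 0.09 and cage 3 0.89. The remaining 3 of the family did not share this: Oasl1, which restrains IRF7 production, differed by 0.13 (SE 0.11), Oasl2 by -0.08 (SE 0.11) and Oas3 by -0.11 (SE 0.14), each with mixed signs over the cages.

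The cytosolic sensors differed among themselves. Dhx58 (LGP2), a regulator of the RIG-I family, read 6.98, 7.44 and 7.14 in wild-type and 7.46, 7.70 and 7.78 in Duoxa-/- pools, a difference of 0.46 (SE 0.14, limma adjusted p = 0.811) without overlap of the groups. With the mean of its 3 probe sets, of which the others were dim, the Dhx58 difference was 0.12 (SE 0.07). Ifih1 (MDA5), which senses long double-stranded RNA, read 11.10, 11.26 and 11.17 against 11.37, 11.27 and 11.39. Its groups are apart by 0.01, and the difference of 0.17 (SE 0.08) was 0.01 in cage 2. Ddx58 (RIG-I), which senses RNA with triphosphate ends, went the other way, at 9.59, 9.74 and 9.38 against 9.57, 9.31 and 9.48. That difference of -0.12 (SE 0.11) lies within the spread of the wild-type pools (SD 0.18, n = 3) and was -0.02 with the mean of its probe sets. Zbp1, a sensor of Z-form nucleic acids that can start necroptosis, differed by 0.29 (SE 0.33) and had the sharpest split between cages after Ifit2, at 1.21 in cage 1 against -0.01 and -0.33 in cages 2 and 3.

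Of the membrane factors, Bst2 (tetherin), which holds budding virus at the cell surface, read 8.75, 9.08 and 9.10 in wild-type pools and 9.27, 9.61 and 9.16 in Duoxa-/- pools. The groups do not overlap, and the difference of 0.37 (SE 0.14) was 0.06 in cage 3. Rtp4, a receptor chaperone with antiviral activity, read 10.39, 10.61 and 10.85 against 10.88, 10.82 and 11.17. The wild-type pool of cage 3 slightly exceeded the Duoxa-/- pool of cage 2, while every cage taken alone had the Duoxa-/- pool higher, by 0.21 to 0.49 (mean 0.34, SE 0.14; 0.21 with the mean of its probe sets). Ifitm3, which blocks fusion of virus with endosomes, was bright and even, at 12.04, 12.01 and 11.83 in wild-type and 11.89, 11.96 and 11.75 in Duoxa-/- pools (difference -0.09, SE 0.09).

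Rsad2 and Cmpk2 are neighbours in the RefSeq annotation and encode enzymes that act on the same nucleotide pool: CMPK2 makes cytidine triphosphate and viperin, the product of Rsad2, turns it into a chain terminator of viral polymerases. Rsad2 read 9.88, 10.40 and 9.87 in wild-type pools and 10.58, 10.44 and 10.48 in Duoxa-/- pools, higher by 0.45 (SE 0.14, limma adjusted p = 0.811) without overlap. Cmpk2 read 10.39, 10.14 and 10.35 against 10.08, 9.69 and 10.45, a difference of -0.22 (SE 0.18, limma adjusted p = 0.819). In cage 1, where Rsad2 was higher by 0.70, Cmpk2 differed by -0.31. The second probe set of Cmpk2 differed by 0.15, so its sign depends on the probe set, whereas all 3 probe sets of Rsad2 were higher on average, by 0.35 to 0.49. With the mean of its probe sets Cmpk2 differed by -0.03. The Rsad2 probe set with 0.35 was higher in only 2 cages. In cage 2 it read 8.77 in the wild-type and 8.53 in the Duoxa-/- pool, so its groups overlap.

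The 3 factors that carry the interferon signal differed by 0.02 to 0.18. Irf7, the factor that amplifies interferon production, read 10.55, 10.32 and 10.39 in wild-type and 10.36, 10.27 and 10.68 in Duoxa-/- pools, a difference of 0.02 (SE 0.12, 95% interval -0.26 to 0.29) that turned to -0.01 with quantile normalization. Stat2 read 8.04, 7.93 and 7.95 against 8.06, 8.11 and 8.004, a difference of 0.08 (SE 0.08); its dimmer probe set differed by 0.35, and the mean of both by 0.22. For Irf9 the values were 8.76, 9.03 and 8.9997 against 9.27, 9.0003 and 9.06, so that its difference of 0.18 (SE 0.11) came from cage 1 (0.51 against -0.03 and 0.06). The ADP-ribosylation genes Parp9 and Parp14 differed by 0.06 (SE 0.08) and 0.07 (SE 0.12). Parp9 read 10.95, 11.17 and 11.05 in wild-type and 11.14, 11.06 and 11.15 in Duoxa-/- pools. The antiviral dynamin-like GTPases Mx1 and Mx2 differed by 0.08 (SE 0.13) and 0.02 (SE 0.11), with mixed signs over the cages. These intervals bound the differences and do not show that the genotypes were equal.

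Several probe sets were present for 11 of the 31 genes. Of the 16 probe sets that were not used, 13 had the same sign of difference as the one used. The exceptions belonged to Cmpk2, Ddx58 (0.15) and Dhx58 (-0.16); the probe set of Dhx58 with the other sign read only 4.30 to 4.64, against 6.98 to 7.78 for the one used.

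**Figure D3:**
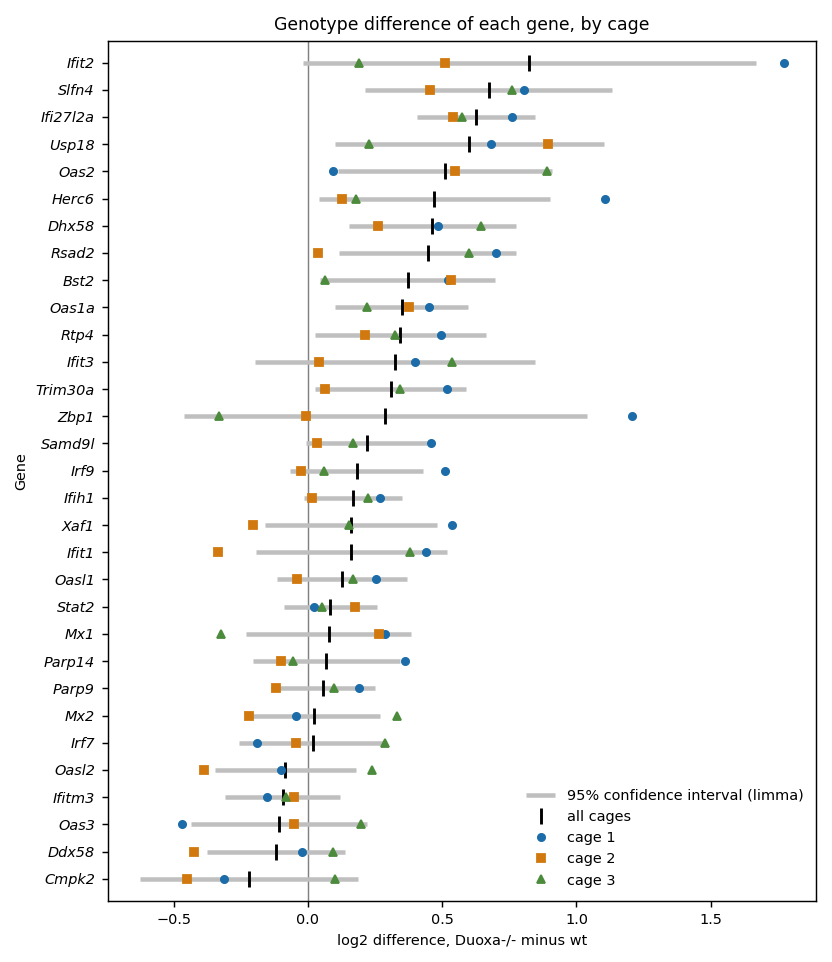
Log2 difference, Duoxa-/- minus wild type, of each of 31 genes in cage 1, 2 and 3 (coloured symbols) and over all cages (black bar), with the 95% confidence interval of limma in grey, genes ordered by the overall difference. The cage 1 symbols of Ifit2 (1.77), Zbp1 (1.21) and Herc6 (1.11) lie far to the right of their cage 2 and 3 symbols.

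How much of this rests on the wild-type pool of cage 1 was asked next. That pool had the lowest of the 6 values in 21 of 31 genes, against 26.8% of all genes and 34.5% of those at or above the median level. Averaged over the 31 genes, the level was 9.22, 9.52 and 9.41 in the wild-type pools of cages 1, 2 and 3 and 9.61, 9.61 and 9.64 in the Duoxa-/- pools. The wild-type pools thus ranged over more than the Duoxa-/- pools, which were almost level, and the pool of cage 1 was the farthest from the rest.

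Without the wild-type pool of cage 1 the median difference was 0.12, and 23 of 31 genes were still higher in Duoxa-/- pools (44.4% of all genes in the same comparison). The number with an unadjusted p under 0.05 went from 11 to 5, all higher (1.01% of all genes higher, 3.71% in either direction), namely Dhx58, Ifi27l2a, Oas1a, Oas2 and Slfn4, and 0 passed after adjustment (0% of all genes). At least 1.25-fold higher were 7 genes rather than 12 (0.808%). The 16 genes higher in all 3 cages are also all the genes higher in both cages 2 and 3 (22.7% of all genes), so none was added or lost by cage 1. Leaving out a pool can only add to the genes whose groups do not overlap, and without that pool Stat2 was added (11 of 31, 7.56% of all genes). Without the wild-type pool of cage 2 the median difference was 0.30, and 16 of 31 genes did not overlap (13.5% of all genes). Of single genes, Ifit2 went from 0.82 to 0.47, Herc6 from 0.47 to 0.25 and Zbp1 from 0.29 to -0.06, and Mx1 and Parp14 also turned sign, to -0.02 and -0.04, while Ifi27l2a went from 0.63 to 0.56 and Oas2 from 0.51 to 0.55.

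**Figure D4:**
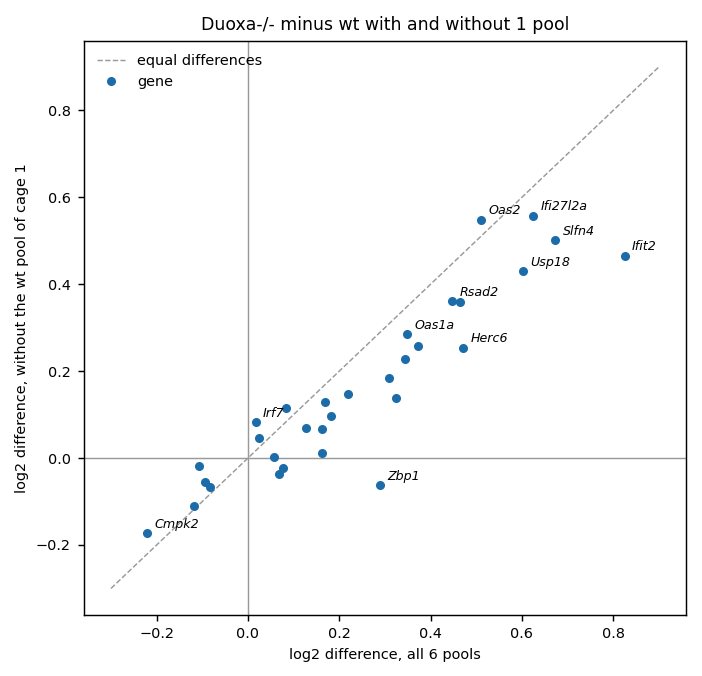
Genotype difference of each of 31 genes (log2, Duoxa-/- minus wild type) with all 6 pools (x axis) against the difference without the wild-type pool of cage 1 (y axis); points on the dashed line would be equal. Most points lie below the line, Zbp1 and Ifit2 farthest, while Oas2 lies above it and Ifi27l2a close to it.

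Cage by cage, the list had median differences of 0.44, 0.03 and 0.20, with 24, 17 and 27 of 31 genes higher in the Duoxa-/- pool (50.5%, 42.2% and 50% of all genes). With 1 pool per genotype in a cage, a difference between these values could not be tested. Levels between cages, with genotype in the fit, differed for 0 of 31 genes by limma's moderated F-test (0.011% of all genes passed), with an unadjusted p under 0.05 for 5 (6.21% of all genes). Those were Ifit3, with cage means of 8.49, 8.79 and 9.20, Slfn4 (8.51, 9.14 and 8.73), Usp18 (8.77, 9.41 and 9.05), Rtp4 (10.63, 10.72 and 11.01) and Cmpk2 (10.23, 9.91 and 10.40). Slfn4 and Usp18 were highest in cage 2 and the others in cage 3. Without the Duoxa-/- pool of cage 1, that cage was left with its wild-type pool alone, where Ifit2 had its lowest value of the 6 (7.91). A difference of Ifit2 between cages cannot be told apart from that 1 pool there.

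Lists of the rest of the pathway had median differences between -0.04 and 0.04 over all cages. In cages 1, 2 and 3 the medians were 0.18, -0.19 and -0.09 for signal transducers and 0.07, -0.21 and -0.03 for negative regulators. Sensing genes and adaptors had 0.03, -0.13 and -0.02. Interferon genes and receptor chains lay between -0.06 and 0.07 in each cage. Of the interferon genes themselves, 10 of 18 were measured, and all 10 lay below the median level of the array, where RMA compresses differences. Their median difference was -0.04 and 0 had an unadjusted p under 0.05; Ifna5 differed by 0.14 (SE 0.08) and Ifna1 by 0.20 (SE 0.14). The 6 receptor chains had a median of 0.04, among them the type I receptor chain Ifnar1 (0.13, SE 0.08) and the type III receptor chain Ifnlr1 (0.03, SE 0.08). Signal transducers had a median of -0.03 (2 of 8 higher), with Irf2 at -0.16 (SE 0.10) and Irf1 at -0.15 (SE 0.19). Sensing genes and adaptors outside the list had a median of -0.03 (3 of 10 higher), with the RIG-I ligase Trim25 at 0.14 (SE 0.08) and the adaptor Ticam1 at -0.19 (SE 0.13). Negative regulators had a median of 0.03, with Socs1 at 0.24 (SE 0.22) and Pias1 at -0.21 (SE 0.11). In each of these lists 0 genes passed after adjustment with limma and 0 had an unadjusted p under 0.05.

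Other interferon-stimulated genes, 25 measured, had a median difference of 0.03. Of these, 15 were higher (46.1% of all genes) and 6 were higher in all cages (13.5%). The 31 antiviral genes had 0.18, 26 and 16. In cages 1, 2 and 3 the medians of the 25 genes were 0.15, -0.10 and 0.07. Higher were 21, 7 and 15 of 25 (50.5%, 42.2% and 50% of all genes). Only Phf11d, at 7.98, 8.28 and 8.09 in wild-type and 8.57, 8.48 and 8.37 in Duoxa-/- pools, had an unadjusted p under 0.05 (difference 0.36, SE 0.10, limma adjusted p = 0.811). Eif2ak2, which encodes the antiviral kinase PKR, differed by 0.40 (SE 0.18), mostly in cage 2 (0.94), and Helz2 by 0.22 (SE 0.10). Without the wild-type pool of cage 1 the median of the 25 genes was -0.02, with 11 higher (44.4% of all genes). The interferon-induced GTPases, which respond mainly to interferon gamma, split by cage: all 10 were higher in the Duoxa-/- pool of cage 1 and all 10 lower in those of cages 2 and 3. Their medians were 1.06, -0.56 and -0.36, against 0.44, 0.03 and 0.20 for the antiviral genes in the same cages. Irgm1, for example, differed by 0.83, -0.19 and -0.15. Whether the lists differ was not tested.

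**Figure D5:**
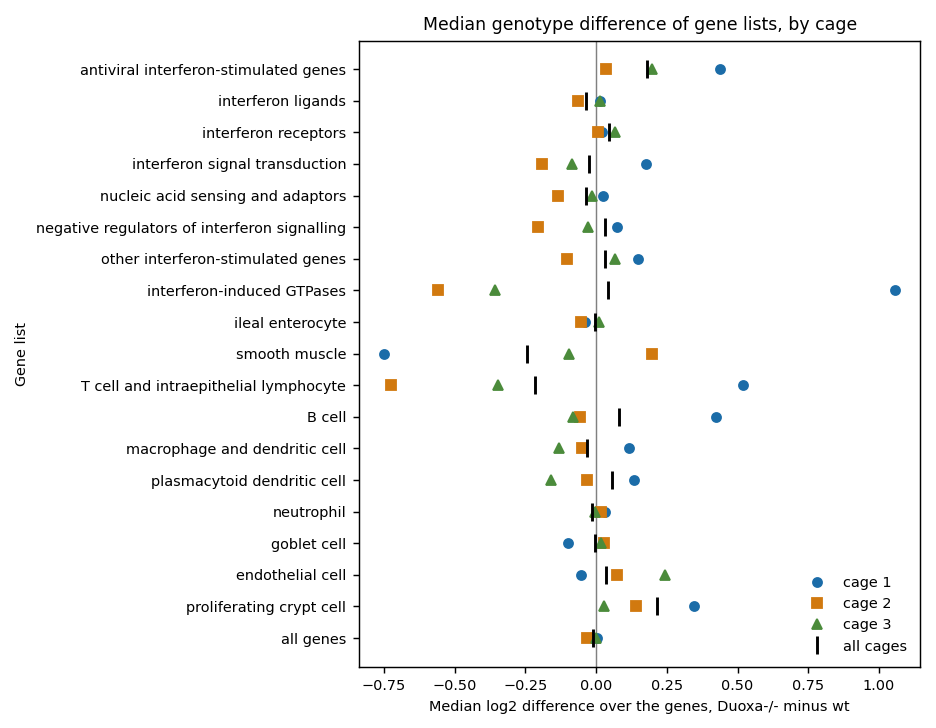
Median log2 difference, Duoxa-/- minus wild type, over the genes of each list in cage 1, 2 and 3 (coloured symbols) and over all cages (black bar). The antiviral genes lie at or above 0 in each cage (0.44, 0.03 and 0.20), whereas the GTPases and the T cell genes are above 0 in cage 1 and below it in cages 2 and 3, and smooth muscle genes the reverse in cages 1 and 2.

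Markers of other cell types moved with the cages, and their part in the values above was not tested. The 12 T cell genes had mean levels of 8.34, 9.11 and 8.73 in wild-type and 8.80, 8.37 and 8.39 in Duoxa-/- pools; 11 of 12 had a lower Duoxa-/- mean, with a median of -0.21. The 10 smooth muscle genes had mean levels of 12.12, 11.52 and 11.72 against 11.33, 11.70 and 11.57, with all 10 lower on average. The 9 crypt proliferation genes had mean levels of 10.14 to 10.46 in wild-type and 10.31 to 10.59 in Duoxa-/- pools, all 9 higher (7 of them in all cages). B cell genes ranged over 8.36 to 8.67 and 8.57 to 8.81, and macrophage and dendritic cell genes over 8.50 to 8.82 and 8.37 to 8.71. Plasmacytoid dendritic cells are the main producers of type I interferon. The 7 genes listed for them had mean levels of 8.85 to 9.06 and 8.97 to 9.08. Their lectin Siglech, 1 of the 7, read 6.70 to 7.03 in the wild-type and 6.76 to 6.87 in the Duoxa-/- pools. Whether the other genes of the list read these cells was not tested. Enterocyte genes were level, at 13.67 to 13.71 and 13.60 to 13.70. An RMA value has no true zero, so absence of a marker cannot be read from these levels, but 6 of 7 neutrophil genes were below the median level of the array. Set by cage, the medians in cages 1, 2 and 3 were 0.44, 0.03 and 0.20 for the antiviral genes, 0.34, 0.14 and 0.03 for the crypt proliferation genes, 0.52, -0.72 and -0.35 for the T cell genes and 0.11, -0.05 and -0.13 for the macrophage and dendritic cell genes. The first 2 lists were above 0 in every cage and the others in cage 1 alone.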

How the data were processed

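The 6 arrays held biotin-labelled RNA pools of 3 wild-type and 3 Duoxa-/- samples. The deposited values are log2 probe-set summaries. Per the submitters' processing notes the authors used RMA and affy, with no version stated. RMA equalises the arrays and compresses differences of dim probe sets. The columns had medians of 6.55 to 6.60. Of 45101 rows, 64 controls were left out; 34945 probe sets had 1 gene symbol, 932 several and 9160 none.

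Genotypes were compared with limma 3.58.1 in R 4.3.3 (lmFit, eBayes, two-sided, Benjamini-Hochberg over 18193 genes, threshold 0.05) without a cage term, and cages with its moderated F-test. SE and intervals are limma's; SD is over 3 pools. Cages were litters according to the series' design, so pools of 1 cage are pairs. Deviations of same-cage pools correlated with r of -0.18, 0.16 and 0.34 across genes, and of different cages from -0.44 to 0.40. P-values measure the spread between pools. Pool values are given for the 12 genes with the largest differences, those without overlap, the 6 with the highest level, the 5 with the smallest p between cages, and 6 pathway genes, of which Isg15 had no value. Of each pathway list, up to 4 genes of smallest p are named. The genes, lists and tests were chosen with earlier results of these data known. The fits were also run on simulated data with added differences of known size, and the outcome is not given here. Python 3.11.15, pandas 2.3.3 and matplotlib 3.10.9 were used.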

Additional observations from a re-analysis of the deposited data

How the results depend on the processing

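Under 17 alternatives to the genotype fit, 0 of the antiviral genes passed in each. Their median difference lay between 0.11 (without both pools of cage 1) and 0.31 (without both pools of cage 2). All moves were smaller than the SD of the cage medians (0.20), but that SD exceeds the main median of 0.18. When any 1 pool was left out, 23 to 26 genes were higher. Leaving out 1 pool gave medians of 0.12 to 0.30, and 5 to 13 genes with an unadjusted p under 0.05. With cage as a replicate block, 0 passed (smallest adjusted p 0.741) and 13 had an unadjusted p under 0.05. Among all genes, 1 outside the antiviral list passed when cage 3 lost its wild-type array (limma adjusted p = 0.0136). Dropping both arrays of cage 3 also let 1 gene pass (limma adjusted p = 0.0296). The other alternatives run over all genes gave 0. With the replicate block, the share of all genes with an unadjusted p under 0.05 went from 5.53% to 6.41%. The count went from 1 to 3 of 25 for other interferon-stimulated genes. It went from 0 to 2 for crypt proliferation (9 genes) and for neutrophil genes (7). For B cell genes (7) it went from 1 to 2 and for smooth muscle genes (10) from 1 to 0. In the fit between cages, leaving out 1 pool left its cage with 1 pool, so a cage difference there cannot be told apart from that pool. Of the 23 genes given by pool, 3 turned sign, all within 0.12 of 0: Irf7 with quantile normalization (-0.0072), without both pools of cage 3 (-0.12) and between -0.10 and 0.10 without 1 pool, Parp9 without both pools of cage 1 (-0.011) and Ddx58 without both pools of cage 2 (0.036); the cause was not tested. Without both pools of cage 1 or of cage 3, 5 and 7 genes had an unadjusted p under 0.05. Of the settings that leave out pools, the share of all genes was counted only without the wild-type pool of cage 1 (3.71%). The other unadjusted counts without pools therefore cannot be set against all genes. The number whose groups do not overlap, counted under settings chosen after seeing the data, can only stay or grow as pools are left out. It was 10 to 16 without 1 pool. Without both pools of cage 1 it was 11 (12.7% of all genes), without both of cage 2 it was 19 (18.1%) and without both of cage 3 it was 16 (17.1%). Among single pools, the share of all genes was counted without the wild-type pools of cage 1 (7.56%) and cage 2 (13.5%) only. No scaling moved the median of all genes by more than 0.02. Signal over background is unknown without detection calls.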
